A study of Homo sapiens with 8 samples.

Results

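SIDT1 and SIDT2 are the 2 human members of the SID1 transmembrane family, and their transcripts were followed over 4 groups of arrays of a metastatic breast cancer cell line. SIDT1 was chosen by its change with IL-13 in control cells in these same data, and SIDT2 was added as its paralog. They are 2 of the 20219 gene symbols tested. Each was measured by 1 feature of the array (8081710 for SIDT1 and 7944049 for SIDT2), the deposited annotation flags neither for cross-hybridization, and it places both products in the membrane.

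The cells, MIV-Luc, were made from MCF10CA1a by adding luciferase. MCF10CA1a is the metastatic line at the end of the MCF10A breast cancer progression series, which belongs to the basal-B subtype. All groups therefore carried luciferase and a stably integrated pLKO hairpin vector, either a scrambled hairpin (MIV-Luc-shSCR) or 1 hairpin against the IL-13 receptor IL13Rα2 (MIV-Luc-shIL13Rα2#2), and no second hairpin was profiled. Each was mock-treated (- IL-13) or treated with 20 ng/ml of the cytokine for 16 h (+ IL-13), with 2 arrays per group, described as biological replicates, and 8 arrays in all. Within a group the arrays are named A and B by column order, which carries no meaning. The study asked which genes respond to IL-13 and to loss of IL13Rα2.

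The family is named after SID-1, a nematode membrane protein that lets double-stranded RNA enter cells and so spreads RNA interference through the animal. SIDT2 lies mainly in the lysosomal membrane and has been tied to the uptake of nucleic acids into lysosomes and to the passage of double-stranded RNA out of endosomes. SIDT1 is less well known and has also been tied to RNA uptake, and both proteins resemble cholesterol-binding membrane proteins. IL-13 signals through the IL-4 receptor alpha chain and IL13Rα1 to the transcription factor STAT6, while IL13Rα2 binds IL-13 as a decoy.

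The windows around the start of both genes are shown because IL-13 acts on transcription through STAT6, which binds a palindrome with a spacer. They are RefSeq sequences of GRCh38.p14, 300 bases each, from 250 bases before to 50 bases from the start, written 5′ to 3′ on the + strand, at chr3:113532305-113532604 for SIDT1 and chr11:117178493-117178792 for SIDT2. Capitals mark a match to one of 4 motifs, which were chosen after the sequences had been seen and were searched on both strands.
SIDT1: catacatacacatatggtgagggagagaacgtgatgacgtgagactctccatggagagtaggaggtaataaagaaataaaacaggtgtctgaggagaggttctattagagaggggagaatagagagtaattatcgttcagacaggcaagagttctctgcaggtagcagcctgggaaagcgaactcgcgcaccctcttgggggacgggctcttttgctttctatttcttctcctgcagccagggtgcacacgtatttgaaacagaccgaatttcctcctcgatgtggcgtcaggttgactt
SIDT2: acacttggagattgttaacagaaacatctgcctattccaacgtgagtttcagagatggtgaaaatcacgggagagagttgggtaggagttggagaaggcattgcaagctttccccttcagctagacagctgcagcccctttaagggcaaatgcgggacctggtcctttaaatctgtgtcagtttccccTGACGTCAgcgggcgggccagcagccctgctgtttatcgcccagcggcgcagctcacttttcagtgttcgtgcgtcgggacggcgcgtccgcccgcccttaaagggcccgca

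The motifs were the STAT palindrome with a spacer of 4 (TTCNNNNGAA) or 3 (TTCNNNGAA), the E-box CACGTG found at many lysosomal genes, and the cAMP response element TGACGTCA. Both genes matched the RefSeq table. The SIDT1 window held no match to any of them. Of all 35116 promoters of the same length, 6.44% held the first palindrome, 7.66% the second, 7.26% the E-box and 1.85% the cAMP response element. The SIDT2 window held 1 match, a cAMP response element whose first base lies 62 bases upstream of the start, so no matches overlapped. The SIDT1 window had a GC content of 48.3% with 11 CpG sites, the SIDT2 window 56.0% with 18, and the medians over all promoters were 58.67% and 14.

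The values are log2 expression after RMA, the authors' normalization of all arrays together. Array medians lay between 5.02 and 5.06, Pearson's r over features was 0.992 to 0.993 within groups and 0.988 to 0.993 between groups, and the median SD within groups was 0.143. Having only 2 arrays per group limits the precision throughout. The targeted gene was lower in the knockdown cells. IL13RA2 stood at 8.07 and 8.09 in MIV-Luc-shSCR (- IL-13), 9.36 and 9.33 in MIV-Luc-shSCR (+ IL-13), 6.52 and 6.34 in MIV-Luc-shIL13Rα2#2 (- IL-13) and 8.23 and 8.15 in MIV-Luc-shIL13Rα2#2 (+ IL-13). The knockdown difference was -1.65 without IL-13 (adjusted p = 0.0105) and -1.16 with it (adjusted p = 0.0241, limma). In the knockdown cells treated with IL-13, its level was above that of mock-treated control cells on both arrays. That difference was only 0.11 and did not pass the threshold (adjusted p = 0.815, limma). In this comparison 54.5% of features differed at least as much, and the arrays of 40.3% did not overlap. IL13RA2 was thus not shown to exceed its level in untreated control cells. The 8 markers of basal mammary epithelium had mean log2 values of 6.17 to 11.99, and those of leukocytes (4 genes) 2.47 to 5.06 and of fibroblasts (3 genes) 4.61 to 6.14.

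SIDT1 was lowest in untreated control cells and highest with IL-13, whichever hairpin the cells carried. Its untreated values in both lines lay below every array median (5.02 to 5.06). As no detection call was used, they may lie at background. Its log2 level was 3.99 on array A and 4.39 on array B of MIV-Luc-shSCR (- IL-13), a mean of 4.19 ± 0.278 (SD, n = 2). With IL-13 these cells reached 5.80 and 5.52, a mean of 5.66 ± 0.197 (SD, n = 2). Both treated arrays stood above both untreated ones, by 1.14 to 1.81 over the 4 pairs of arrays.

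In the knockdown cells SIDT1 stood at 4.70 and 4.89 without IL-13, a mean of 4.80 ± 0.135 (SD, n = 2). With IL-13 it stood at 5.47 and 5.60, a mean of 5.54 ± 0.090 (SD, n = 2). The treated arrays were again above the untreated ones, by 0.58 to 0.90 over the 4 pairs. The order of the group means was thus control with IL-13, knockdown with IL-13, knockdown without IL-13 and control without IL-13. The arrays of the first 2 groups in that order overlapped, and those of the other neighbours did not. The 2 untreated control arrays also lay furthest apart, by 0.39.

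SIDT2 kept a narrower range. It stood at 5.16 and 5.26 in MIV-Luc-shSCR (- IL-13), a mean of 5.21 ± 0.072 (SD, n = 2), and at 5.16 and 5.24 in MIV-Luc-shSCR (+ IL-13), a mean of 5.20 ± 0.058 (SD, n = 2). It stood at 5.53 and 5.50 in MIV-Luc-shIL13Rα2#2 (- IL-13), a mean of 5.51 ± 0.018 (SD, n = 2). With IL-13 the knockdown cells had values of 5.12 and 5.31, a mean of 5.21 ± 0.130 (SD, n = 2). The untreated knockdown cells were the 1 group whose arrays stood apart from all others, and the other 3 groups overlapped with each other.

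**Figure D1:**
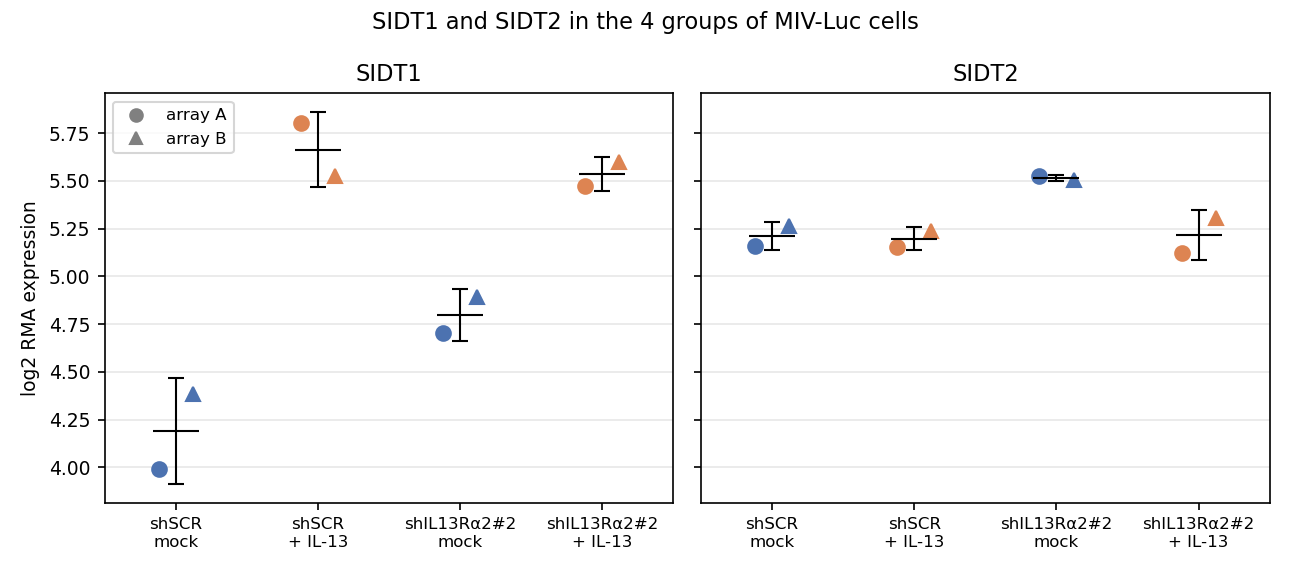
Log2 RMA expression of SIDT1 (left) and SIDT2 (right) on each array of the 4 groups, with circles for array A, triangles for array B, and the bar and whiskers for the mean ± SD (n = 2). SIDT1 lies between 3.99 and 4.89 on the 4 mock-treated arrays and between 5.47 and 5.80 on the 4 arrays with IL-13, while SIDT2 stays between 5.12 and 5.53.

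The change with IL-13 in MIV-Luc-shSCR cells is the one SIDT1 was chosen by, so it is given as a description without a test. SIDT1 was 1.47 higher on the log2 scale (SE 0.166, 95% interval 1.09 to 1.86), 2.78-fold. Of all 29141 features, 17 (0.0583%) passed the thresholds in this comparison, an adjusted p under 0.05 and a fold change above 2, and in 36.7% the arrays of both groups did not overlap. Nothing is read from these shares for SIDT1. SIDT2 differed by -0.013 (95% interval -0.27 to 0.25), and its arrays overlapped. As the samples are bulk RNA, more cells expressing a gene and more RNA per cell cannot be told apart.

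The response of the knockdown cells to IL-13 compares means that share no array with that comparison, and SIDT1 was tested there. The spread came from all 8 arrays, so the p-value is not fully independent of the arrays SIDT1 was chosen by. Limma on only the 4 arrays compared did not call SIDT1 either, but it could not have done so. It keeps the same means, and their fold change of 1.67 lies below 2 whatever the p-value. SIDT1 was 0.74 higher with IL-13 (SE 0.166, 95% interval 0.36 to 1.12), 1.67-fold, a size below the fold change threshold. It did not pass the adjusted p threshold either (adjusted p = 0.390 in limma, with Benjamini-Hochberg adjustment over all features). Its unadjusted p was 0.0022 (limma), and 6.93% of all features had one under 0.05. By size of difference SIDT1 ranked 207 of 29141 features, and 0.71% of features differed at least as much in either direction. In this comparison 18 features (0.0618%) were called, neither of the 2 members among them, and 37.4% of features had arrays that did not overlap, as did both members. SIDT2 was 0.30 lower with IL-13 (SE 0.112, 95% interval of the difference -0.56 to -0.04), 1.23-fold (unadjusted p = 0.0288 and adjusted p = 0.668, limma). A difference of that size or more was seen in 11.9% of features.

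The paralogs thus had values on opposite sides of 0 in the knockdown cells, and neither passed the test. Over the 4 pairs of arrays, SIDT2 was lower with IL-13 by -0.40 to -0.20 in the knockdown cells and ranged from -0.11 to 0.08 in control cells. Over the 8 arrays, Pearson's r between SIDT1 and SIDT2 was -0.206, a description in which the points share groups.

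Knockdown of IL13Rα2 went with higher values of both genes in the absence of IL-13. SIDT1 was 0.61 higher than in control cells (95% interval 0.22 to 0.99), 1.52-fold, which is given without a test because the untreated control arrays were those it was chosen by. SIDT2 was 0.30 higher (SE 0.112, 95% interval 0.04 to 0.56) and did not pass the threshold (unadjusted p = 0.027 and adjusted p = 0.466, limma). Of all features, 13.6% differed at least as much, and 9.51% had an unadjusted p under 0.05. In this comparison 19 features (0.0652%) were called and 41.2% had arrays that did not overlap, as both members had.

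Among cells treated with IL-13, SIDT1 differed by -0.13 between the hairpins (95% interval -0.51 to 0.26), given without a test because the treated control arrays were among those it was chosen by. SIDT2 differed by 0.017 (95% interval -0.24 to 0.28, adjusted p = 0.992 in limma), and the arrays of both genes overlapped between the hairpins. The direction for SIDT2 turned when 1 array was left out, to -0.075 without array B of the knockdown cells with IL-13 and to -0.024 without array A of the control cells with IL-13. Of all features, 15 (0.0515%) were called and 36.4% did not overlap.

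Set against untreated control cells, knockdown cells with IL-13 had SIDT1 1.35 higher (95% interval 0.96 to 1.73), 2.54-fold, again without a test, and SIDT2 0.004 higher (95% interval -0.26 to 0.26). In this comparison 45 features (0.154%) were called and 40.3% did not overlap. The response of SIDT1 to IL-13 in knockdown cells minus that in control cells was -0.73 (95% interval -1.28 to -0.19), a value that rests on the arrays it was chosen by. The same difference for SIDT2 was -0.29 (95% interval -0.66 to 0.08). No feature of the array had an adjusted p under 0.05 for this difference in limma, and the smallest was 0.624.

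**Figure D2:**
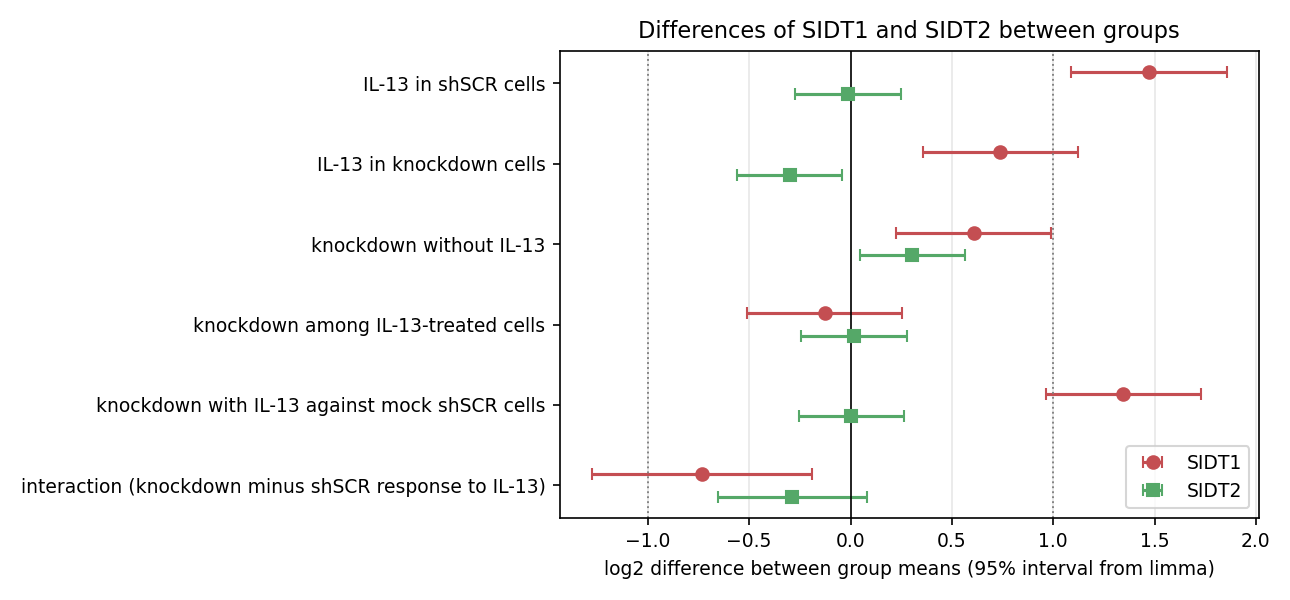
Log2 differences of SIDT1 (red circles) and SIDT2 (green squares) in 5 comparisons between groups and in the interaction, with 95% intervals from limma; dotted lines mark the fold change threshold of 2. SIDT1 is 1.47 higher with IL-13 in control cells and 0.74 higher in knockdown cells, while the SIDT2 differences lie between -0.30 and 0.30.

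No member of a list of nucleic acid sensors passed the test. Over all features only 0.0515% to 0.154% were called, depending on the comparison. A count of 0 therefore says little about a list this short, here and in the lists below. Across the 6 lists described here and the 5 comparisons, at most 4 members of a list had an unadjusted p under 0.05 in limma, and the methods' test with adjustment called 0. Over all features that level was reached by 6.79% with IL-13 in control cells, 6.93% with IL-13 in knockdown cells, 9.51% for the knockdown without IL-13, 7.07% for the knockdown among treated cells and 9.56% for knockdown cells with IL-13 against untreated control cells. The list held 18 sensors and adaptors, most of them for double-stranded RNA, with TLR7, TLR8 and TLR9 for other nucleic acids, and 0 were called in any comparison. With IL-13 in knockdown cells, 8 were higher and 10 lower, and their median was -0.011 against 0.016 over all features. In control cells 12 were higher and 6 lower, with a median of 0.038. An unadjusted p under 0.05 was found for 4 of 18 in control cells and 1 of 18 in knockdown cells, all higher with IL-13. The 1 in knockdown cells was DDX58, the cytoplasmic RNA sensor RIG-I, at 8.25 and 8.41 without and 8.85 and 8.95 with IL-13, a difference of 0.57 (adjusted p = 0.359, limma). In control cells it stood at 8.79 and 8.71 without and 9.02 and 9.23 with IL-13, a difference of 0.37 (adjusted p = 0.652, limma). Both treated arrays were above both untreated ones in each line. Arrays did not overlap, in either direction, for 7 of the 18 sensors in each line. Over all features the share was 36.7% in control cells and 37.4% in knockdown cells. When limma's prior was made robust and dependent on intensity, DDX58 had an adjusted p of 0.0251 in knockdown cells (limma), below the fold change threshold. The lowest difference of the list in knockdown cells was that of MAVS, the mitochondrial adaptor of such sensors, at -0.11, and it ranged from -0.18 to -0.045 with 1 array left out.

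Of 14 genes of RNA interference, 0 were called in any comparison, and the median difference with IL-13 was 0.021 in knockdown cells and 0.07 in control cells. The highest in knockdown cells was DICER1, which cuts double-stranded RNA into small RNAs, at 0.19, or 0.11 to 0.26 with 1 array left out. The lowest was TNRC6B, a partner of the Argonaute proteins in silencing, at 6.06 and 6.22 without and 5.77 and 5.75 with IL-13. That difference of -0.38 (adjusted p = 0.544, limma) was the 1 member of the list with an unadjusted p under 0.05, and in control cells TNRC6B differed by -0.06.

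Lysosomal enzymes and carriers of nucleic acids were looked at because SIDT2 lies in the lysosomal membrane. Of 11 genes listed, 10 were measured, and RNASE4 was not analysed here. With IL-13 in knockdown cells 2 were higher and 8 lower, with a median of -0.11, and in control cells 5 were higher and 5 lower, with a median of -0.045. None was called in limma, and at an unadjusted p under 0.05 there was 1 of 10 in each line, higher with IL-13. DNASE2B, an acid endonuclease related to the lysosomal DNase II, had the highest value, and since it stands in the study's own gene tables from these samples its place in the list is not independent evidence. It stood at 2.97 and 3.12 without and 4.10 and 4.13 with IL-13 in knockdown cells. In control cells it stood at 3.41 and 3.11 without and 4.04 and 4.50 with IL-13.

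The treated arrays of DNASE2B were thus above the untreated ones in both lines. Over all features, 37.4% did not overlap in knockdown cells and 36.7% in control cells. The difference of DNASE2B was 1.07 in knockdown cells (95% interval 0.67 to 1.47, adjusted p = 0.185, limma) and 1.01 in control cells (95% interval 0.61 to 1.41, adjusted p = 0.210, limma). Under that prior the adjusted p for DNASE2B was 0.0435 in knockdown cells, which is a call, and 0.0683 in control cells (limma). DNASE2B was among the dimmest 30% of features. The lowest difference of the list in knockdown cells was that of SLC29A3, a lysosomal nucleoside transporter, at -0.24, and it ranged from -0.33 to -0.14 with 1 array left out. In control cells SLC29A3 differed by 0.056.

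Of 10 genes of nucleic acid uptake at the cell surface, 0 were called in any comparison and 0 had an unadjusted p under 0.05 with IL-13 in either line (limma). Their median was -0.11 in knockdown cells and -0.06 in control cells, with 7 lower and 3 higher in each. Several of these genes, RFTN1 among them, lay below every array median (5.02 to 5.06) on all 8 arrays. As no detection call was used, their values may lie at background. The extremes in knockdown cells were RFTN1, which brings TLR3 and its RNA ligand together, at 0.31, and CD14, a co-receptor that binds nucleic acids, at -0.26. The other feature of RFTN1 differed by -0.009, so its value depends on the feature. CD14 ranged from -0.39 to -0.14 with 1 array left out.

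Of 12 proteins of the lysosomal membrane, 0 were called in any comparison, with a median of 0.033 for IL-13 in knockdown cells and -0.033 in control cells. The extremes in knockdown cells were CTNS, the cystine exporter, at 0.32, and CLCN7, a chloride/proton exchanger, at -0.12. CTNS was 0.096 without array B and 0.55 without array A of the untreated knockdown cells. CLCN7 turned to 0.18 without array B of the knockdown cells with IL-13 and to 0.035 without array A of the untreated knockdown cells, and was -0.42 without array A of the knockdown cells with IL-13. CTNS had discordant arrays in control cells with IL-13, at 4.26 and 5.39. Of 10 genes of cholesterol transport, 0 were called in any comparison, with medians of 0.051 and 0.08. LIPA, the lysosomal acid lipase, was the highest at 0.37 in knockdown cells (adjusted p = 0.601, limma), from 7.47 and 7.64 to 7.86 and 7.99. ABCA1, which exports cholesterol, was the lowest at -0.20, or -0.27 to -0.13 with 1 array left out.

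**Figure D3:**
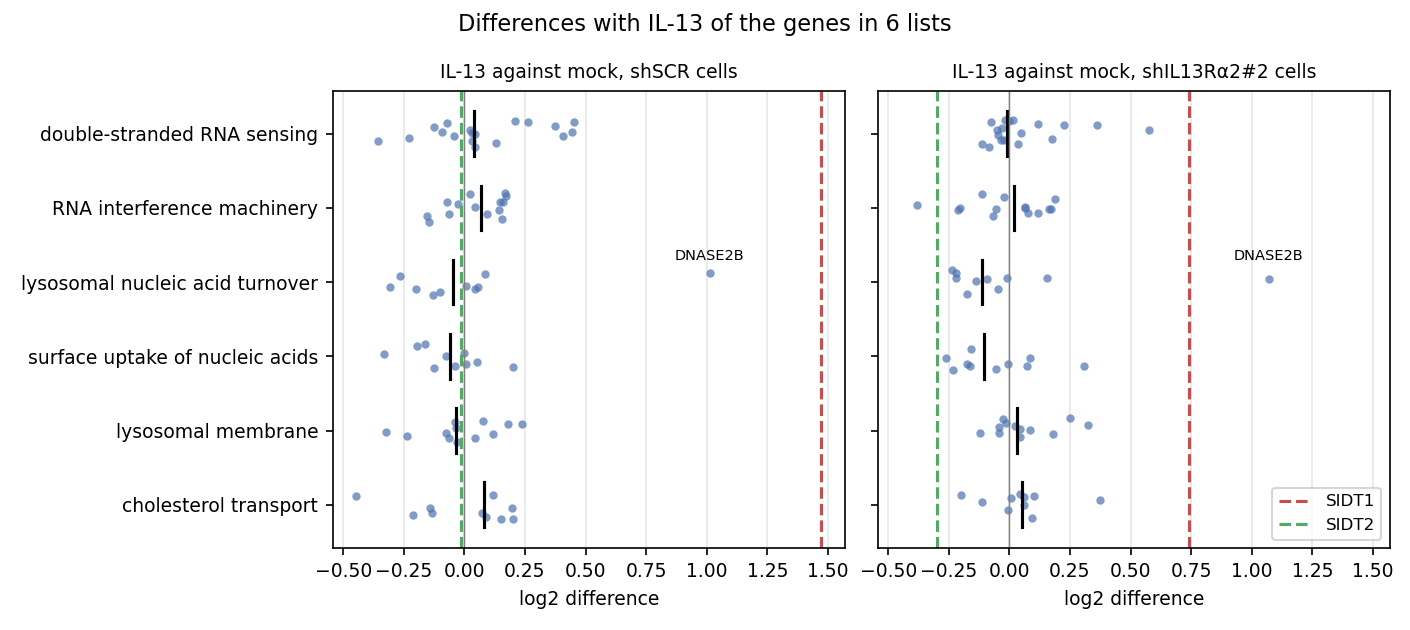
Log2 difference with IL-13 of each measured gene (points) in 6 lists around RNA uptake, sensing and the lysosome, in control cells (left) and knockdown cells (right), with black bars for list medians and dashed lines for SIDT1 (red) and SIDT2 (green). Points are spread vertically at random for legibility. DNASE2B lies at 1.01 and 1.07, and all other list genes lie between -0.45 and 0.57.

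The features whose log2 values ran most like those of SIDT1 over the 8 arrays included DPYD, AIM1, RNF125 and CCNB1IP1. They were found among 1712 features with a symbol whose group means spanned at least 0.5, and Pearson's r is given without a test, since the points share groups. DPYD, the first enzyme of pyrimidine breakdown, had an r of 0.972, with group means of 8.19 and 9.24 in control cells without and with IL-13 and 8.49 and 9.26 in knockdown cells. Like DNASE2B, it stands in the study's own gene tables from these samples.

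AIM1 (r = 0.959) here is absent in melanoma 1, a crystallin-fold protein. RNF125 (r = 0.957) and CCNB1IP1 (r = 0.947) are E3 ubiquitin ligases. These 4 had their lowest mean in untreated control cells and the next lowest in untreated knockdown cells, as SIDT1 did. They were picked for likeness over these same arrays, so the shared order is not separate evidence. The span of their group means was 0.51 to 1.07 and that of SIDT1 was 1.47.

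For SIDT2, the closest of 1713 features were LOC100130924 (r = 0.962), ZNF701 (r = 0.936), SYCP3 (r = 0.935), KIAA1009 (r = 0.923) and ZNF260 (r = 0.918). ZNF701 and ZNF260 are zinc finger proteins, SYCP3 is part of the synaptonemal complex of meiotic chromosomes, and KIAA1009 is a centrosomal protein. Each had its highest mean in untreated knockdown cells, such as 4.93 for SYCP3 against 4.31 to 4.43 in the other groups. That too comes with picking them by r over the same arrays. No feature was in both sets.

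**Figure D4:**
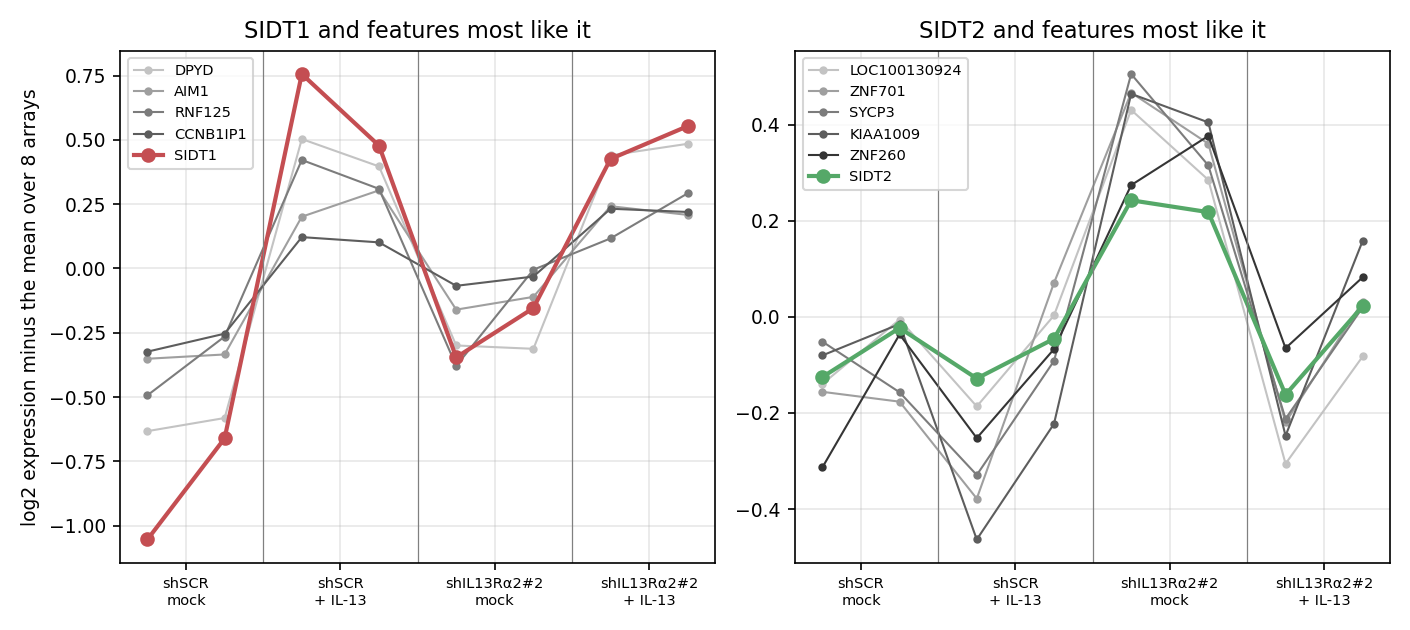
Log2 expression of SIDT1 (left, red) and SIDT2 (right, green) and of features most like each (grey, 4 for SIDT1 and 5 for SIDT2), minus each feature's mean over the 8 arrays. Each group holds array A then array B, and lines only join values of 1 feature. The set of SIDT1 is lowest in untreated control cells (r of 0.947 to 0.972), and the set of SIDT2 is highest in untreated knockdown cells (r of 0.918 to 0.962). Both sets were picked by r over these arrays, so the likeness comes with the choice.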

How the data were processed

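The authors hybridized RNA of 4 groups of MIV-Luc cells, 2 arrays each, and deposited log2 values per gene-level feature, made with RMA (background correction, quantile normalization, probe summary) in Affymetrix Expression Console version 1. The study names Affymetrix exon arrays. Whether the feature numbers belong to that design or to a gene-level array was not settled here, and the annotation build is not given in the sources used here. Columns were assigned to groups by construct and treatment, and carry no replicate numbers that would pair arrays. Of 33297 features, 4156 were controls or spike-ins and were not tested.

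Group means of all 8 arrays were fitted in R 4.3.3 with limma 3.58.1, with 4 residual and 3.86 prior degrees of freedom, no filter and Benjamini-Hochberg adjustment over 29141 features. A feature was called at an adjusted p under 0.05 and a fold change above 2. P-values cover the spread between arrays of a group. The fit was tested on simulated data. No detection call was used, so low values may lie at background.

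The members and gene lists were chosen with earlier results of these data known. Lists came from general knowledge: double-stranded RNA sensing, RNA interference, lysosomal nucleic acid turnover, surface uptake, lysosomal membrane, cholesterol transport, and markers of basal, luminal, fibroblast, leukocyte and endothelial cells. Genes with several features used the brightest. Named genes were the members, IL13RA2, the 5 most similar features of each member (1 of them is not reported here), list members with an adjusted p under 0.05, and each list's highest and lowest difference with IL-13 in knockdown cells; further names in the closing section were chosen after their values were seen. Alternatives were the methods' test without and with adjustment, limma on the 4 arrays compared, leaving out the dimmest 30%, shifted medians, a second quantile normalization, a robust prior with a trend on intensity, 1 feature for each gene, an unadjusted p, no fold threshold, and leaving out each array.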

Additional observations from a re-analysis of the deposited data

How the results depend on the processing

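SIDT1 and SIDT2 were not called in their tested comparisons under any alternative run. Every difference lay below the fold change threshold of 2, so no change of p-value could have called them while that threshold stood. With no fold threshold, their adjusted p was still not under 0.05 (limma). For IL-13 in knockdown cells, SIDT1 ranged from 0.64 to 0.84 (adjusted p 0.157 to 0.952, limma or the methods' test) and SIDT2 from -0.39 to -0.21 (adjusted p 0.504 to 0.973). For the knockdown without IL-13, SIDT2 ranged from 0.25 to 0.36 (adjusted p 0.317 to 0.828). For the knockdown among IL-13-treated cells, SIDT2 ranged from -0.075 to 0.11 with 1 array left out, and was -0.024 and -0.075 in the fits where it turned. The described SIDT1 difference in control cells ranged from 1.28 to 1.67, and that of SIDT2 from -0.064 to 0.038.

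Counts of called features are given in the order IL-13 in control cells, IL-13 in knockdown cells, knockdown without IL-13, knockdown among treated cells, and knockdown with IL-13 against untreated control cells. With limma they were 17, 18, 19, 15 and 45. The methods' test without adjustment gave 30, 34, 37 and 28 in the first 4, and with adjustment 0 in all 5. Limma on the 4 arrays compared gave 2, 2, 0, 0 and 2. An unadjusted p gave 56, 56, 62, 50 and 96. A trend with a robust prior gave 32, 37, 26 and 70 in the last 4, and no fold threshold 83 in the last. Without 1 array they ranged from 2 to 10, 3 to 11, 0 to 2, 0 to 5 and 2 to 38. The cause was not tested beyond the fewer arrays entering some fits.

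The list counts stayed at 0 except for lysosomal nucleic acid turnover, where DNASE2B gave 1 with IL-13 in knockdown cells under the methods' test without adjustment, the trend with a robust prior and the unadjusted p, and 1 in control cells under the unadjusted p. No paired analysis was possible because the columns carry no replicate numbers shared with the labels. With 2 arrays per group, small differences cannot be resolved.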

Other observations

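NPC2, which carries cholesterol inside lysosomes, was picked out from the list of cholesterol transport after its values were seen. It stood at 10.93 and 10.76 in untreated control cells and 10.10 and 10.18 in untreated knockdown cells, a difference of -0.70 (adjusted p = 0.132, limma). With IL-13 it stood at 10.77 and 10.63 in control cells and 10.25 and 10.22 in knockdown cells, a difference of -0.47 (adjusted p = 0.377, limma). The arrays of NPC2 did not overlap between the hairpins with or without IL-13, and neither difference passed the threshold. Over all features, 41.2% did not overlap without IL-13 and 36.4% with it. Of the 10 genes of cholesterol transport, 5 did not overlap without IL-13 and 8 with it.

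The 3 features of UNC93B1, the chaperone of nucleic acid receptors in endosomes, did not move together. With IL-13 in knockdown cells the brightest differed by 0.18 and both others by -0.50, so the direction under this gene symbol depends on the feature. Features were assigned by symbol only, and whether all of them measure the same gene was not checked. Among the markers of other cell types, 0 were called in any comparison, where 0.0515% to 0.154% of all features were. PECAM1, listed as endothelial, had log2 values of 7.71 to 8.82 over the 8 arrays and differed by -0.61 with IL-13 in knockdown cells (adjusted p = 0.317, limma), while VWF and CDH5 stayed between 3.65 and 4.83. With IL-13 in control cells PECAM1 differed by -0.43 (adjusted p = 0.559, limma). The knockdown without IL-13 went with a PECAM1 difference of 0.61 (adjusted p = 0.217, limma). Of the 4 luminal markers, GATA3 stood at 7.79 to 8.32 and FOXA1 at 6.98 to 7.50, while ESR1 stood at 3.97 to 4.40 and PGR at 3.03 to 3.45.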
